A study of Homo sapiens with 12 samples.

Results

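Human 143B osteosarcoma cells were treated for 48 h with 1.0 µM ceritinib, and the 3 ceritinib libraries were set against the 3 libraries of cells given DMSO, the solvent, for the same time. These are 6 of the 12 libraries in the study. The other 6 came from cells given 1.0 µM crenolanib and from cells given both compounds, and the 3 crenolanib libraries enter a single direct comparison at the end. All cells were labelled wild-type and were plated in dishes the day before treatment. 143B is an established line, derived from HOS osteosarcoma cells by transformation with a Kirsten ras oncogene, so every group is the same 1 line. The labels call the 3 libraries of a group biological replicates without saying how the cultures were separated. P-values therefore set each difference against the spread between these libraries, which may not include variation between separate cultures.

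Expression was given for 56140 gene symbols as FPKM, fragment numbers scaled to transcript length and library size. Those reaching 1 FPKM in 3 or more of the 6 libraries, 11548 symbols, were tested. Changes are given on the scale of log2(FPKM + 1), ceritinib minus DMSO, which understates the change of low genes, and a gene was called when its adjusted p was under 0.05. By that filter 95 genes entered through the ceritinib libraries alone and 81 through the DMSO libraries alone, so those genes had to differ.

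Ceritinib is an oral inhibitor of the receptor tyrosine kinase ALK, used in lung cancers that carry ALK fusions. At cellular concentrations it also inhibits the insulin and IGF-1 receptors, ROS1, focal adhesion kinase and several RSK family kinases. The insulin and IGF receptors signal through AKT and mTORC1 to amino acid supply and protein synthesis, and focal adhesion kinase couples integrins to the cytoskeleton.

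ALK itself was listed near 0, at 0.00969, 0.00308 and 0.0117 FPKM in the ceritinib libraries and 0.0291, 0.00953 and 0.0138 FPKM in the DMSO libraries, and ROS1 at 0 in all 6. Of the 11 kinases listed as ceritinib targets, 6 passed the filter. The IGF-1 receptor gene IGF1R rose, with 11.2, 11.4 and 11.2 FPKM in the ceritinib libraries, against 8.37, 7.81 and 7.996 FPKM in the DMSO libraries (log2 change 0.44 ± 0.03 SE, adjusted p = 5.2e-05). INSR, the insulin receptor, stayed under the filter at 0.831, 0.916 and 0.870 FPKM with ceritinib, against 1.12, 1.16 and 0.994 FPKM with DMSO. PTK2, which encodes focal adhesion kinase, fell a little, to 14.2, 14.4 and 14.7 FPKM with ceritinib, against 15.6, 15.4 and 15.8 FPKM with DMSO (log2 change -0.10), a call that was lost without DMSO replicate 3 (adjusted p = 0.053). RPS6KA1, which encodes RSK1, fell (log2 change -0.30). RPS6KA3, FER and CAMKK2 did not pass the threshold, with log2 changes of -0.09, -0.11 and -0.05. With each library rescaled to the same FPKM total, RPS6KA3 (log2 change -0.17, adjusted p = 0.016) and CAMKK2 (log2 change -0.13, adjusted p = 0.048) were called lower.

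The libraries were of similar estimated depth, and the cells matched their label in part. Depth was estimated from the point where low values of FPKM times transcript length pile up, searched within a preset range. It was 23.2 to 28.2 M fragments in the ceritinib libraries and 23.9 to 26.5 M in the DMSO libraries. By that estimate 1 fragment in a transcript of 1 kb is worth 0.0355 to 0.0431 FPKM. Of 10 mesenchymal markers, VIM, SPARC, FN1, CD44, COL6A1 and COL6A2 had at least 1 FPKM in every library, COL1A1 and the osteoblast factor RUNX2 lay near or under 1 FPKM, and COL1A2 and THY1 were at or near 0. One label speaks of thymic samples at RNA isolation. None of 9 blood cell markers reached 1 FPKM in all 6 libraries, with summed levels of 0.641 to 0.830 FPKM in the ceritinib libraries and 0.249 to 1.11 FPKM in the DMSO libraries, and the thymic epithelial factor FOXN1 was at 0. Of 6 epithelial markers 1 did, EPCAM, at a mean of 1.94 FPKM with ceritinib and 1.29 FPKM with DMSO. Of 3 endothelial markers 0 did. Mitochondrially encoded genes took 29.3 ± 0.517% of FPKM in the ceritinib libraries and 24.1 ± 1.19% in the DMSO libraries (SD, n = 3 each; exact permutation test, two-sided, p = 0.1, the smallest this design allows). The part of that share in the results was not tested beyond the scalings named beside them.

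Ceritinib moved many genes by small amounts. Of the 11548 tested genes 4696 were called (40.7%), 2602 higher (22.5%) and 2094 lower (18.1%). Of all calls 92.0% were under 0.5 on the log2 scale and 61.9% under 0.25, and 52 genes rose (0.45%) and 15 fell (0.13%) by 2-fold or more on that scale. The median over all tested genes was 0.013. The split between higher and lower calls depended on scaling: it was 1454 higher and 3257 lower when each library was rescaled to the same FPKM total (a TPM scale), and 3155 and 1758 when only nuclear genes were given equal totals. Gene groups below are therefore read against these shares, and TPM-scale counts are given beside many of them. The TPM scale also gives the added 1 less weight, so its log2 changes are not directly comparable with those on the FPKM scale. In bulk RNA, a change in the number of cells that express a gene and a change in the level per cell cannot be told apart.

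**Figure D1:**
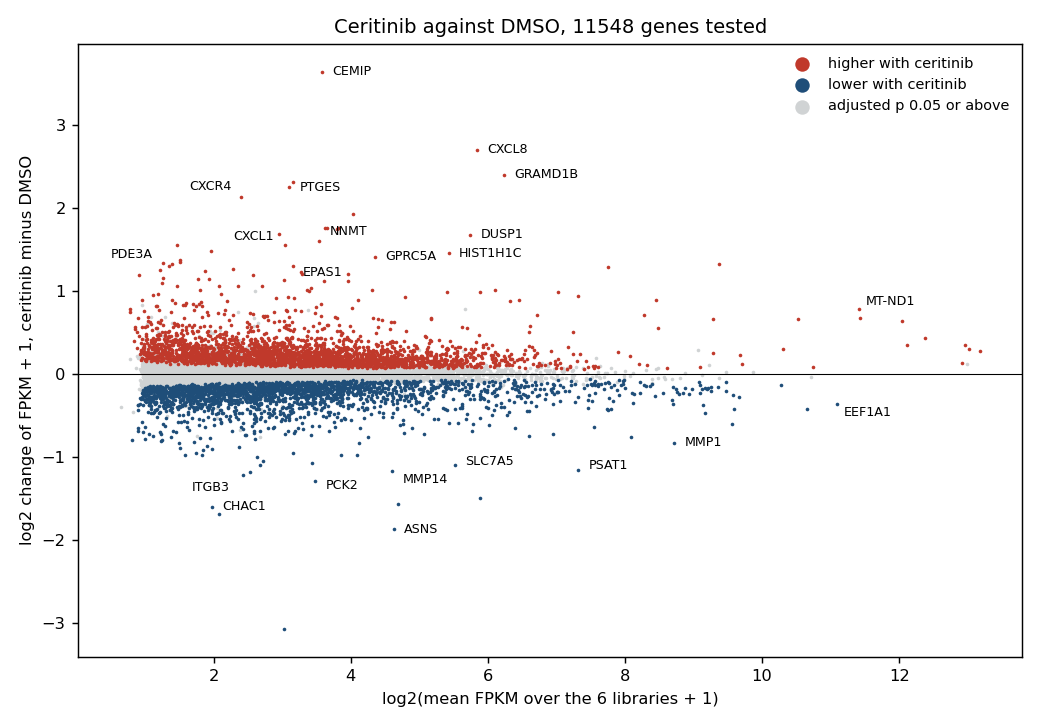
Change of each of the 11548 tested genes (log2 of FPKM + 1, ceritinib minus DMSO, vertical axis) against its mean level over the 6 libraries (horizontal axis, log2); red points were called higher, blue points lower, grey points were not called. CEMIP lies highest at 3.64; the lowest point, at -3.07, is AC004922.1, a locus that overlaps other genes on its strand, and among the labelled genes ASNS is lowest at -1.87.

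Inflammatory chemokine genes rose, CXCL8 by most. The ELR chemokines CXCL1, CXCL2, CXCL3 and CXCL8 attract neutrophils through the receptors CXCR1 and CXCR2, and CXCR4 is the receptor for CXCL12. Of the 20 chemokine and receptor genes listed, 6 passed the filter, and 5 of these rose and 1 fell, with a median log2 change of 1.45. This count and median are shaped by the filter, since CXCL2 and CXCL3 passed it only through the ceritinib libraries and CXCR4 mostly through them. The other 14 members were not tested. CXCL8 (ENSG00000169429.10, chromosome 4, 73740506 to 73743716 of GRCh38 in GENCODE 29) had 96.1, 103 and 97.8 FPKM in the ceritinib libraries, against 13.3, 14.9 and 15.03 FPKM in the DMSO libraries, a 6.87-fold higher mean (log2 change 2.70 ± 0.05 SE, adjusted p = 5.2e-08). CXCL1 had 11.1, 11.8 and 10.98 FPKM in the ceritinib libraries, against 3.55, 2.68 and 3.34 FPKM in the DMSO libraries (log2 change 1.56 ± 0.08 SE, adjusted p = 5.9e-06). The groups did not overlap for either gene, as in 53.2% of all tested genes.

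CXCL2 varied most between its ceritinib libraries, with 2.42, 2.85 and 4.01 FPKM in the ceritinib libraries, against 0.576, 0.555 and 0.636 FPKM in the DMSO libraries (log2 change 1.35 ± 0.12 SE, adjusted p = 1.4e-04). CXCL3 had 2.79, 2.71 and 2.77 FPKM in the ceritinib libraries, against 0.471, 0.454 and 0.585 FPKM in the DMSO libraries (log2 change 1.32). CXCL1, CXCL2 and CXCL3 are close paralogs whose reads the counting could have divided among them. CXCR4 had 7.65, 7.698 and 7.29 FPKM in the ceritinib libraries, against 1.32, 0.786 and 0.774 FPKM in the DMSO libraries (log2 change 2.14 ± 0.10 SE, adjusted p = 4.4e-06). ACKR3, a scavenging receptor for CXCL12, was the member that fell (log2 change -0.15), and its call was lost without any 1 of 5 of the libraries (adjusted p = 0.061 to 0.086).

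The promoters of the 5 chemokine-list genes that rose all held the letters GGNNTTTCC, a core of the NF-κB site, within the 250 bases before their RefSeq start. Searched on both strands, these letters occurred in 5.48% of the 27305 promoters in the table and in 5.78% of the 8445 that belong to tested genes. CXCL1, CXCL2 and CXCL3 are close paralogs with similar promoters, so their matches are not independent. ACKR3, which fell, had no promoter among those searched, and list members that were not tested were left out of this count. The count therefore covered only genes that rose, with no other promoter of the list for contrast. The 110 bases before the start of the 4 ELR chemokine genes are shown because they carry these letters (RefSeq, GRCh38.p14; CXCL8 chr4:73740459-73740568 and CXCL1 chr4:73869283-73869392 on the plus strand, CXCL2 chr4:74099196-74099305 and CXCL3 chr4:74038690-74038799 on the minus strand). Capitals mark each match, and a match is a description of the sequence, not a shown binding site.
CXCL8: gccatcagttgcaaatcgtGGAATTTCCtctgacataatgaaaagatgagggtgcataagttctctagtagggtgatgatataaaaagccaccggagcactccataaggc
CXCL1: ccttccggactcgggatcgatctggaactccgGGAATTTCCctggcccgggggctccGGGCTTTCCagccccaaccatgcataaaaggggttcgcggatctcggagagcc
CXCL2: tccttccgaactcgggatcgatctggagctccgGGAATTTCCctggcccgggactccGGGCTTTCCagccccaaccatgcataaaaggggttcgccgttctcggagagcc
CXCL3: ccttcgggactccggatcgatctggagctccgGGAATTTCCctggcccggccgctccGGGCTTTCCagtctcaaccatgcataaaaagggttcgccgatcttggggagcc
The match in CXCL8 began 91 bases before the start. CXCL1, CXCL2 and CXCL3 each had 2 matches, beginning 77 or 78 and 53 bases before it. The letters of a cyclic AMP response element (TGACGTCA) occurred in none of the 5 promoters and those of AP-1 (TGANTCA) in 1, CXCL8, farther upstream than the stretch shown, so no match overlapped the NF-κB letters.

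Genes that encode NF-κB subunits, their inhibitors and regulators rose more often than they fell. NF-κB dimers are held in the cytoplasm by IκB proteins, whose own genes are NF-κB targets. In this list 13 of 25 tested members rose, 2 fell and 10 did not pass the threshold, with a median log2 change of 0.15. On the TPM scale the counts were 8 higher and 3 lower. NFKBIA, the gene of the main IκB inhibitor, had 13.9, 14.3 and 14.3 FPKM in the ceritinib libraries, against 7.46, 7.35 and 7.53 FPKM in the DMSO libraries (log2 change 0.85 ± 0.03 SE, adjusted p = 1.1e-06). BCL3, an atypical IκB protein, had 2.95, 2.76 and 2.61 FPKM in the ceritinib libraries, against 1.06, 1.17 and 1.12 FPKM in the DMSO libraries (log2 change 0.83 ± 0.05 SE, adjusted p = 1.8e-05). Both genes were higher in each ceritinib library than in any DMSO library. TNFAIP3, a ubiquitin-editing enzyme that restrains the pathway, rose (log2 change 0.58), as did NFKBIZ (log2 change 0.51), NFKBIB (log2 change 0.35) and the precursor subunit gene NFKB2 (log2 change 0.29). TNFAIP2 (log2 change -0.39) and IKBKG (log2 change -0.20) fell. The letters GGNNTTTCC were in the promoters of 6 of the 12 members that rose and have a promoter in the table, of 1 of the 2 that fell and of 0 of the 8 that were not called.

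Cytokines changed in a less uniform way. Of the interleukin-1 and interleukin-6 family genes, their receptors and related cytokines, 7 rose, 3 fell and 7 of 17 did not pass, median log2 change 0.02, and the sign of that median turned under other scalings. IL11, a gp130 cytokine, had 12.7, 14.02 and 13.3 FPKM in the ceritinib libraries, against 5.97, 5.78 and 6.197 FPKM in the DMSO libraries (log2 change 1.04 ± 0.04 SE, adjusted p = 2.7e-06). IL7R (log2 change 0.73), LIF (log2 change 0.59), IL1B (log2 change 0.43) and IL1A (log2 change 0.40) also rose, while LIFR (log2 change -0.36) and TNFRSF1A (log2 change -0.30) fell. IL1A was the most abundant of these ligands, at 47.4, 49.1 and 49.6 FPKM with ceritinib, against 36.6, 36.7 and 36.6 FPKM with DMSO. IL24, a member of the IL-10 family, was among the genes with the largest rises, with 1.87, 1.57 and 1.39 FPKM in the ceritinib libraries, against 0.139, 0.128 and 0.142 FPKM in the DMSO libraries (log2 change 1.196). It passed the filter only through the ceritinib libraries.

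The prostaglandin E2 pathway rose at its inducible steps. PTGS2 encodes cyclooxygenase-2 and PTGES the inducible terminal prostaglandin E synthase. PTGES had 13.3, 13.4 and 12.8 FPKM in the ceritinib libraries, against 2.104, 1.94 and 1.91 FPKM in the DMSO libraries (log2 change 2.25 ± 0.04 SE, adjusted p = 5.2e-08). PTGS2 had 3.29, 3.63 and 3.403 FPKM in the ceritinib libraries, against 1.55, 1.57 and 1.28 FPKM in the DMSO libraries (log2 change 0.85 ± 0.06 SE, adjusted p = 3.9e-05). Neither gene overlapped between the groups. PLA2G4A, which releases arachidonic acid, rose less (log2 change 0.20), PTGES2 rose by 0.15, and the other 4 of the 8 tested members did not pass. On the TPM scale PLA2G4A and PTGES2 did not pass either (log2 changes 0.15 and 0.08).

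CEMIP, which encodes a secreted protein that degrades hyaluronan, had the largest rise of any called gene (ENSG00000103888.16, chromosome 15, 80779343 to 80951776). It had 21.5, 20.9 and 20.9 FPKM in the ceritinib libraries, against 0.808, 0.696 and 0.818 FPKM in the DMSO libraries, a 27.3-fold higher mean (log2 change 3.64 ± 0.04 SE, adjusted p = 2.2e-09). It passed the filter only through the ceritinib libraries. HAS3, a hyaluronan synthase, rose to 4.67, 4.89 and 5.23 FPKM with ceritinib, against 2.19, 2.21 and 2.29 FPKM with DMSO (log2 change 0.88). VCAN, the hyaluronan-binding proteoglycan versican, fell to 5.91, 5.86 and 5.85 FPKM, against 10.6, 9.91 and 10.2 FPKM (log2 change -0.71). Of the 11 tested hyaluronan genes 4 rose and 2 fell.

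**Figure D2:**
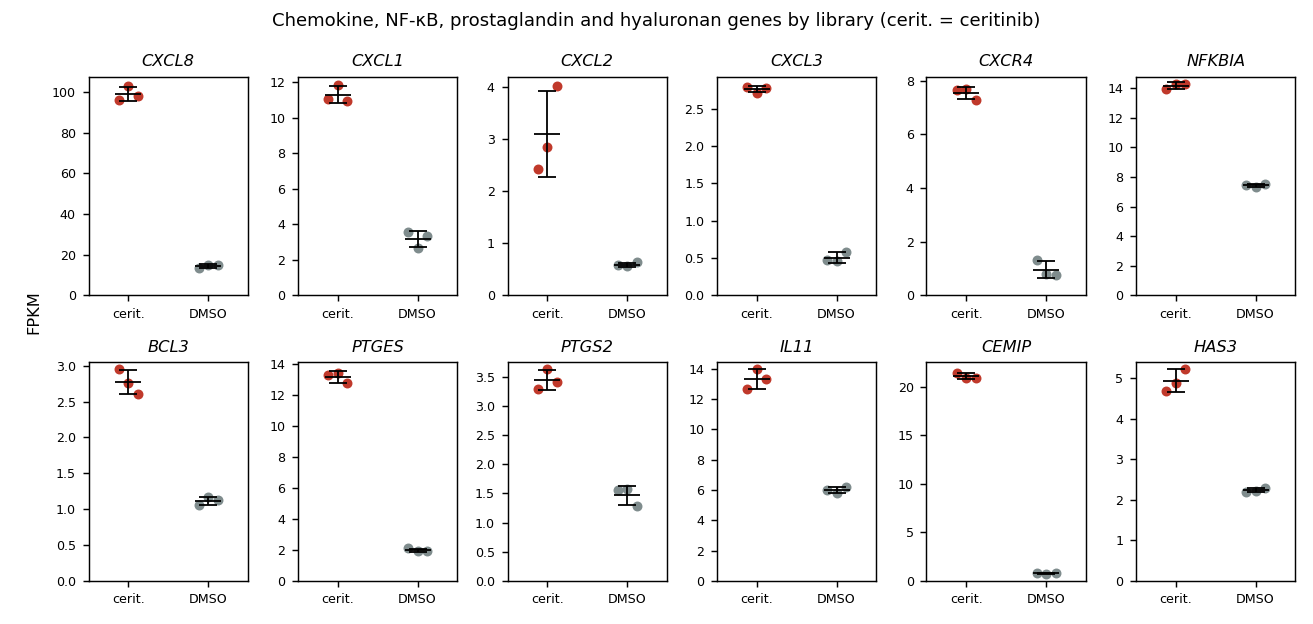
FPKM (vertical axes, each from 0) of 12 genes in the 3 ceritinib libraries (red, left) and the 3 DMSO libraries (grey, right); bars are the mean and SD. In every panel the ceritinib points lie above the DMSO points; CXCL2 has the widest spread, 2.42, 2.85 and 4.01 FPKM with ceritinib.

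Genes of the ATF4 pathway fell. ATF4 is the transcription factor that the integrated stress response and mTORC1 use to switch on amino acid uptake, synthesis and tRNA charging. Of its listed target and partner genes, 3 rose, 16 fell and 4 of 23 did not pass, median log2 change -0.40. ATF4 itself had 148, 154 and 147 FPKM in the ceritinib libraries, against 200.2, 198 and 199 FPKM in the DMSO libraries (log2 change -0.41 ± 0.02 SE, adjusted p = 1.6e-05). ASNS, asparagine synthetase (ENSG00000070669.16, chromosome 7, 97852118 to 97872542), had 10.2, 9.44 and 9.18 FPKM in the ceritinib libraries, against 38.3, 38.5 and 36.5 FPKM in the DMSO libraries, the largest fall of a called gene after AC004922.1 (log2 change -1.87 ± 0.04 SE, adjusted p = 1.8e-07). CHAC1, which degrades glutathione, had 1.56, 0.789 and 0.603 FPKM in the ceritinib libraries, against 4.68, 5.24 and 4.78 FPKM in the DMSO libraries (log2 change -1.60 ± 0.15 SE, adjusted p = 1.7e-04).

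PCK2, the mitochondrial phosphoenolpyruvate carboxykinase, had 5.56, 5.299 and 5.61 FPKM in the ceritinib libraries, against 15.01, 15.5 and 14.2 FPKM in the DMSO libraries (log2 change -1.29 ± 0.04 SE, adjusted p = 7.5e-07). CTH, which makes cysteine, fell to 1.35, 1.36 and 1.51 FPKM with ceritinib, against 3.73, 3.91 and 3.58 FPKM with DMSO (log2 change -0.98). SESN2, an inhibitor of mTORC1, fell to 1.85, 1.71 and 1.97 FPKM, against 3.74, 3.96 and 3.87 FPKM (log2 change -0.77). Each of these was lower in every ceritinib library than in any DMSO library. VLDLR (log2 change -0.88), ADM2 (log2 change -0.83), JDP2 (log2 change -0.82), TRIB3 (log2 change -0.39) and the translation repressor gene EIF4EBP1 (log2 change -0.45) also fell. DDIT3, which encodes CHOP, did not pass (log2 change -0.08), and ATF5 (log2 change 0.53), RASSF1 (log2 change 0.32) and DDIT4 (log2 change 0.18) rose, DDIT4 not on the TPM scale (log2 change 0.11, adjusted p = 0.099).

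The letters TGATGNAA, a core of the C/EBP-ATF response element through which ATF4 acts, were present on either strand in 3.19% of all promoters and in 1.22% of those of tested genes. Of the 13 lower members of the ATF4 list with a promoter in the table, ASNS and CHAC1 held them, and both are shown (RefSeq, GRCh38.p14; ASNS chr7:97872409-97872518 on the minus strand, CHAC1 chr15:40953252-40953470 on the plus strand). In CHAC1 the match lies on the opposite strand and so reads as its reverse complement.
ASNS: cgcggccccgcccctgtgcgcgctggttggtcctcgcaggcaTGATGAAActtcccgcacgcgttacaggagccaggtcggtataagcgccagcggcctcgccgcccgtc
CHAC1: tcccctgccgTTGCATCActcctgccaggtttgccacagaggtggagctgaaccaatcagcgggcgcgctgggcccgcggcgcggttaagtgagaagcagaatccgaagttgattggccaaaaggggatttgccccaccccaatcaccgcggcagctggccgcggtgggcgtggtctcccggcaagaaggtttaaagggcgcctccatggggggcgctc
The match began 68 bases before the start in ASNS and 209 in CHAC1. Among 9 lower tRNA synthetase genes with a promoter, the genes for the alanine and isoleucine enzymes (AARS1 and IARS1 in RefSeq) held these letters, as did MTHFD1L among 4 lower serine and folate genes, while 0 of 8 lower amino acid transporter genes did. The NF-κB letters GGNNTTTCC were as frequent among the 13 lower ATF4 list members, in 2 (PPP1R15A and SESN2). Those NF-κB letters were also in 2 of 6 tRNA synthetase genes that rose and in 0 of 4 prostaglandin genes that rose.

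Serine synthesis and mitochondrial folate enzymes fell. PHGDH, PSAT1 and PSPH convert a glycolytic intermediate to serine, and SHMT2, MTHFD2, MTHFD1L and ALDH1L2 pass its carbon through mitochondrial folate. PSAT1 had 96.7, 100.3 and 96.98 FPKM in the ceritinib libraries, against 223, 219.9 and 214 FPKM in the DMSO libraries (log2 change -1.15 ± 0.03 SE, adjusted p = 1.8e-07). PHGDH had 207, 198 and 196 FPKM in the ceritinib libraries, against 344, 342 and 334 FPKM in the DMSO libraries (log2 change -0.76). ALDH1L2 (log2 change -1.05), MTHFD2 (log2 change -0.68), SHMT2 (log2 change -0.49), MTHFD1L (log2 change -0.44) and PSPH (log2 change -0.19) fell as well. Other enzymes of the list went the other way: TYMS (log2 change 0.24) and SHMT1 (log2 change 0.18) rose, with SFXN1, a mitochondrial serine carrier (log2 change 0.15), whose call was lost on the TPM scale. In the whole list 4 of 15 rose and 7 fell.

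Amino acid transporters and tRNA synthetases fell more often than they rose. Of the transporters 4 rose, 10 fell and 5 of 19 did not pass, median log2 change -0.18. SLC7A5, the transporting subunit of the leucine carrier LAT1, had 29.2, 27.4 and 27.8 FPKM in the ceritinib libraries, against 61.5, 63.4 and 59.8 FPKM in the DMSO libraries (log2 change -1.102 ± 0.03 SE, adjusted p = 6.9e-07). SLC7A11, the cystine transporter, fell to 2.97, 3.24 and 3.33 FPKM with ceritinib, against 5.59, 5.97 and 6.38 FPKM with DMSO (log2 change -0.74), and SLC3A2, the shared heavy chain of both, fell less (log2 change -0.18). SLC6A9 (log2 change -0.79), SLC1A4 (log2 change -0.50) and SLC1A5 (log2 change -0.42) fell, and the arginine transporter SLC7A2 rose (log2 change 0.54). Of the cytosolic tRNA synthetases and their scaffold genes 6 rose, 11 fell and 5 of 22 did not pass, median log2 change -0.16. CARS had 8.96, 8.58 and 8.703 FPKM in the ceritinib libraries, against 18.1, 18.2 and 18.3 FPKM in the DMSO libraries (log2 change -0.98 ± 0.03 SE, adjusted p = 6.0e-07). SARS (log2 change -0.75), MARS (log2 change -0.72), YARS (log2 change -0.71), GARS (log2 change -0.65), AARS (log2 change -0.60) and WARS (log2 change -0.59) followed. The glutamine, lysine and arginine enzymes QARS (log2 change 0.30), KARS (log2 change 0.19) and RARS (log2 change 0.22) rose.

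Of 25 other amino acid enzymes 9 rose and 9 fell, and on the TPM scale 6 rose and 11 fell. NNMT, which methylates nicotinamide with S-adenosylmethionine, rose to 16.3, 15.99 and 17.2 FPKM with ceritinib, against 4.56, 5.05 and 4.71 FPKM with DMSO (log2 change 1.601 ± 0.04 SE, adjusted p = 4.7e-07). BCAT1 (log2 change -0.53), GPT2 (log2 change -0.52) and PYCR1 (log2 change -0.42) fell. Of the mTORC1 regulators 2 of 17 rose and 6 fell, SESN2 and EIF4EBP1 by most.

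**Figure D3:**
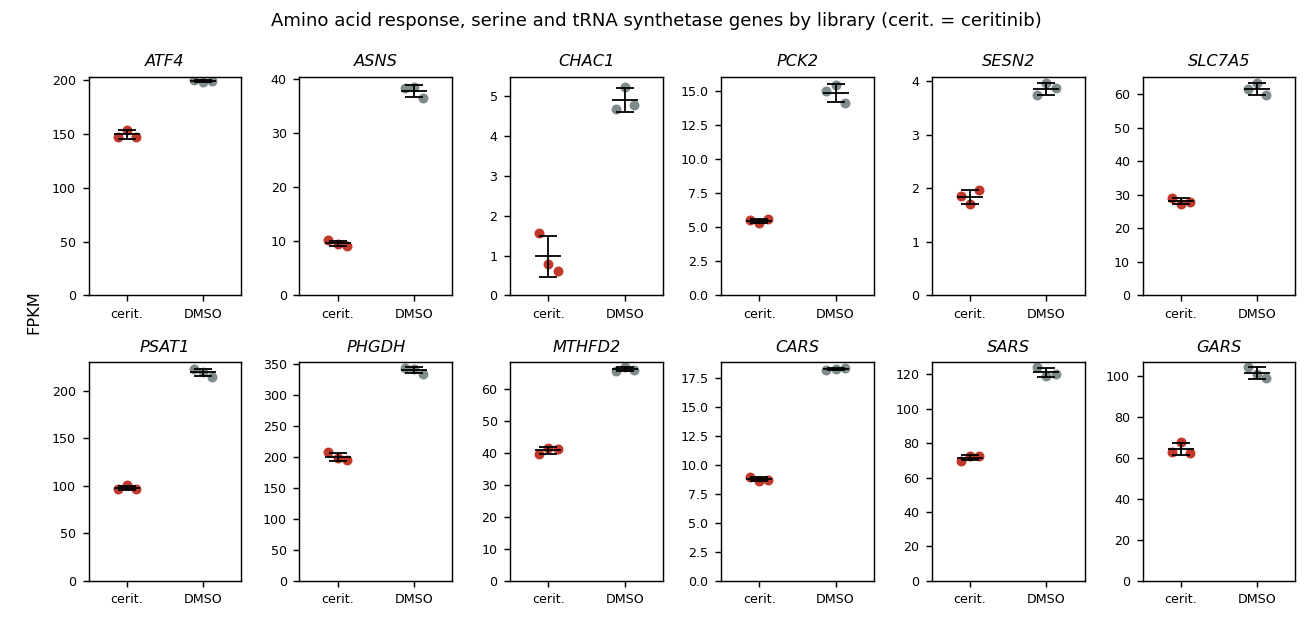
FPKM (vertical axes, each from 0) of 12 amino acid response, serine and tRNA synthetase genes in the 3 ceritinib libraries (red, left) and the 3 DMSO libraries (grey, right); bars are the mean and SD. All 12 are lower in every ceritinib library; ASNS lies at 10.2, 9.44 and 9.18 FPKM with ceritinib, against 38.3, 38.5 and 36.5 FPKM with DMSO.

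Transcriptional outputs of the ERK pathway fell on balance, with exceptions. Sprouty and SPRED proteins, dual-specificity phosphatases and ETV factors are induced by ERK and feed back on it. In this list 4 of 22 tested members rose, 13 fell and 5 did not pass the threshold, with a median log2 change of -0.16. SPRED1 had 10.4, 10.7 and 10.9 FPKM in the ceritinib libraries, against 16.8, 15.9 and 15.97 FPKM in the DMSO libraries (log2 change -0.56). PHLDA1 (log2 change -0.47), SPRY4 (log2 change -0.39), ETV5 (log2 change -0.34), DUSP5 (log2 change -0.27) and DUSP6 (log2 change -0.19) fell. DUSP4 (log2 change 0.65) and MYC (log2 change 0.77) rose, MYC to 11.2, 10.3 and 10.03 FPKM with ceritinib, against 5.76, 5.72 and 5.73 FPKM with DMSO. Among AP-1 and immediate early genes 5 of 15 rose and 7 fell. DUSP1, a phosphatase of p38, JNK and ERK, had 83.96, 78.5 and 79.99 FPKM in the ceritinib libraries, against 25.04, 26.4 and 22.3 FPKM in the DMSO libraries (log2 change 1.68 ± 0.06 SE, adjusted p = 1.3e-06). KLF2 (log2 change -0.89), JUN (log2 change -0.39) and FOSL1 (log2 change -0.32) fell, and FOSL2 rose (log2 change 0.56).

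Receptor tyrosine kinases other than the listed targets fell more often than they rose. Of 17 tested, 4 rose and 8 fell. PDGFRA had 3.47, 4.12 and 4.07 FPKM in the ceritinib libraries, against 6.95, 6.82 and 6.87 FPKM in the DMSO libraries (log2 change -0.69). DDR2, a collagen receptor, had 5.51, 5.39 and 5.59 FPKM in the ceritinib libraries, against 9.43, 9.48 and 9.42 FPKM in the DMSO libraries (log2 change -0.68). EPHB2 (log2 change -0.66), AXL (log2 change -0.53) and EGFR (log2 change -0.37) fell. Of 15 ligand genes 3 rose and 6 fell. EFNB1 fell to 10.6, 10.4 and 10.7 FPKM with ceritinib, against 21.4, 23.04 and 20.6 FPKM with DMSO (log2 change -0.97). The EGF receptor ligands HBEGF (log2 change 0.64) and TGFA (log2 change 0.61) rose, TGFA from a low mean DMSO level of 0.845 FPKM.

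Genes of IGF binding proteins changed in both directions. IGFBP5 had 3.26, 3.27 and 2.83 FPKM in the ceritinib libraries, against 0.633, 0.548 and 0.610 FPKM in the DMSO libraries (log2 change 1.37) and passed the filter only through the ceritinib libraries. IGFBP4 had 62.8, 60.3 and 59.8 FPKM in the ceritinib libraries, against 43.0, 41.7 and 38.7 FPKM in the DMSO libraries (log2 change 0.56), and IGFBP7 rose by 0.51 and IGFBP2 by 0.17. IGFBP6 fell (log2 change -0.21), and IGFBP3 did not pass (log2 change -0.08). The call of IGFBP2 was lost without any 1 of 5 of the libraries (adjusted p = 0.079 to 0.12) and on the TPM scale (adjusted p = 0.199), and that of IGFBP6 without any 1 of the ceritinib libraries (adjusted p = 0.064 to 0.094). GRB10, an adaptor that restrains insulin and IGF receptors, fell to 11.1, 11.6 and 11.3 FPKM, against 16.7, 17.4 and 16.9 FPKM with DMSO (log2 change -0.55). Of 14 tested genes 5 rose and 3 fell, and 3 and 3 on the TPM scale.

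Integrin and focal adhesion genes fell more often than they rose. Of the integrin subunits 3 rose, 7 fell and 1 of 11 did not pass, median log2 change -0.27. ITGB3 had 2.02, 2.28 and 2.37 FPKM in the ceritinib libraries, against 6.48, 6.86 and 6.21 FPKM in the DMSO libraries (log2 change -1.22 ± 0.05 SE, adjusted p = 3.6e-06). The vitronectin and fibronectin receptor subunits ITGB5 (log2 change -0.75) and ITGA5 (log2 change -0.65) fell too, and ITGA10 (log2 change -0.58) and ITGA3 (log2 change -0.38) with them. The collagen receptor subunits ITGA1 and ITGA2 rose, unlike ITGA10, which also belongs to a collagen receptor: ITGA1 had 4.44, 4.86 and 4.89 FPKM in the ceritinib libraries, against 1.79, 1.695 and 1.72 FPKM in the DMSO libraries (log2 change 1.07), and ITGA2 had 41.6, 44.8 and 42.6 FPKM in the ceritinib libraries, against 26.7, 27.02 and 26.4 FPKM in the DMSO libraries (log2 change 0.67). In the focal adhesion list 1 of 21 tested members rose, 13 fell and 7 did not pass the threshold, with a median log2 change of -0.13. The kinase genes FYN (log2 change -0.54), SRC (log2 change -0.32) and YES1 (log2 change -0.20) and the adaptor genes PXN (log2 change -0.22) and BCAR1 (log2 change -0.20) fell, and ZYX rose (log2 change 0.29).

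Genes of the plasminogen system changed in both directions. PLAU encodes urokinase, PLAUR its receptor, PLAT tissue plasminogen activator and SERPINE2 an inhibitor of both activators. PLAU had 388, 382 and 382 FPKM in the ceritinib libraries, against 239.9, 236 and 228 FPKM in the DMSO libraries (log2 change 0.71 ± 0.03 SE, adjusted p = 1.5e-06). SERPINE2 rose (log2 change 0.73), and PLAT (log2 change -0.55), PLAUR (log2 change -0.52), ANXA2 (log2 change -0.42) and S100A10 (log2 change -0.40) fell. Among metalloproteinases and their inhibitors 2 of 15 rose and 6 fell. MMP14, the membrane-bound collagenase, had 13.8, 14.3 and 13.9 FPKM in the ceritinib libraries, against 31.8, 33.8 and 32.6 FPKM in the DMSO libraries (log2 change -1.17 ± 0.03 SE, adjusted p = 4.3e-07). MMP1 had 296, 305 and 304 FPKM in the ceritinib libraries, against 541, 537 and 536 FPKM in the DMSO libraries (log2 change -0.83), and TIMP3 fell (log2 change -0.54). ADAMTS1 rose to 2.47, 2.45 and 2.55 FPKM with ceritinib, against 1.001, 0.888 and 0.918 FPKM with DMSO (log2 change 0.85).

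Matrix genes rose in part. Of 25 tested matrix and matrix processing genes 13 rose and 6 fell, and on the TPM scale 10 rose and 10 fell. FN1, fibronectin, had 28.7, 29.7 and 28.8 FPKM in the ceritinib libraries, against 18.9, 18.2 and 18.3 FPKM in the DMSO libraries (log2 change 0.63). SPARC (log2 change 0.47) and COL5A2 (log2 change 0.41) rose, and COL6A2 (log2 change -0.48), COL6A1 (log2 change -0.36) and TNC (log2 change -0.40) fell. Among basement membrane genes, a list drawn up after the values were seen, 11 of 15 rose and 1 fell. The collagen IV chains COL4A6 (log2 change 0.89) and COL4A5 (log2 change 0.83) rose by most, with AGRN (log2 change 0.43) and LAMB3 (log2 change 0.39). COL4A6 had 2.38, 2.33 and 2.56 FPKM in the ceritinib libraries, against 0.877, 0.841 and 0.827 FPKM in the DMSO libraries. It passed the filter only through the ceritinib libraries. The member that fell was HSPG2, perlecan, with 3.39, 3.07 and 2.92 FPKM in the ceritinib libraries, against 6.86, 7.52 and 7.29 FPKM in the DMSO libraries (log2 change -0.995).

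Genes of the Hippo effectors YAP and TAZ, and of WNT signalling, fell more often than they rose. In the YAP and TEAD list 5 of 19 rose and 11 fell: AXL (log2 change -0.53), CTGF (log2 change -0.39), WWTR1, which encodes TAZ (log2 change -0.33), and YAP1 (log2 change -0.18) fell, and AMOTL2 (log2 change 0.42) and F3 (log2 change 0.39) rose. In the WNT list 2 of 22 rose and 9 fell. WNT5B had 0.414, 1.17 and 1.58 FPKM in the ceritinib libraries, against 2.81, 3.15 and 2.81 FPKM in the DMSO libraries (log2 change -0.98), and FZD1 (log2 change -0.62) and WNT7B (log2 change -0.54) fell. The WNT inhibitor DKK1 rose (log2 change 0.33). TGF-β and BMP genes divided, 9 of 25 higher and 8 lower (7 and 9 on the TPM scale), with FST (log2 change 0.72) and ID3 (log2 change 0.51) higher and SMAD3 (log2 change -0.53) and BMP6 (log2 change -0.59) lower. Of guidance genes 3 of 13 rose and 5 fell, PLXNA2 by most, with 6.096, 5.85 and 5.93 FPKM in the ceritinib libraries, against 13.7, 13.9 and 13.3 FPKM in the DMSO libraries (log2 change -1.07).

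Several genes of phosphodiesterases that degrade cyclic AMP rose. In a list of cyclic AMP pathway genes drawn up after the values were seen, 13 of 30 tested members rose, 4 fell and 13 did not pass the threshold, with a median log2 change of 0.10. On the TPM scale the counts were 10 higher and 7 lower. PDE3A had 2.37, 2.41 and 2.49 FPKM in the ceritinib libraries, against 0.280, 0.348 and 0.445 FPKM in the DMSO libraries (log2 change 1.33 ± 0.06 SE, adjusted p = 3.5e-06). PDE4B had 12.4, 12.9 and 12.9 FPKM in the ceritinib libraries, against 5.89, 5.65 and 5.87 FPKM in the DMSO libraries (log2 change 1.01 ± 0.03 SE, adjusted p = 7.5e-07). PDE7B had 2.62, 2.53 and 2.74 FPKM in the ceritinib libraries, against 0.440, 0.494 and 0.491 FPKM in the DMSO libraries (log2 change 1.298). PDE4D (log2 change 1.101), PDE8A (log2 change 0.70), PDE8B (log2 change 0.68) and CREM, whose short form is a cyclic AMP-induced repressor (log2 change 0.69), also rose, as did PDE3B (log2 change 0.29). PDE4A (log2 change 0.14) and PDE7A (log2 change -0.16) did not pass, but PDE7A was called lower on the TPM scale (log2 change -0.28, adjusted p = 0.022). PDE4A was called higher without DMSO replicate 1 (log2 change 0.19, adjusted p = 0.033). PDE6D, which carries prenylated proteins (log2 change -0.47), PRKAR2B (log2 change -0.40) and PKIA (log2 change -0.35) fell, and CREB1 did not pass (log2 change -0.06). PDE3A, PDE4D, PDE7B and PDE8B had mean DMSO levels under 1 FPKM and passed through the ceritinib libraries.

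Secreted peptide and neurosecretory genes rose as well. Of 10 tested in a list also drawn up after the values were seen, 7 rose and 0 fell. BDNF, brain-derived neurotrophic factor, had 4.11, 4.37 and 3.95 FPKM in the ceritinib libraries, against 1.301, 1.13 and 1.08 FPKM in the DMSO libraries (log2 change 1.25 ± 0.06 SE, adjusted p = 3.8e-06). VGF, a granin-family precursor, had 14.1, 11.4 and 12.3 FPKM in the ceritinib libraries, against 4.36, 5.76 and 4.63 FPKM in the DMSO libraries (log2 change 1.20 ± 0.10 SE, adjusted p = 7.9e-05). SCG2 (log2 change 1.16), APLN, the apelin precursor (log2 change 1.13), and STC1 (log2 change 0.58) rose. Among G protein-coupled receptor and RGS genes 5 of 15 rose and 3 fell (4 and 5 on the TPM scale): GPRC5A had 28.9, 28.7 and 28.2 FPKM in the ceritinib libraries, against 10.7, 10.1 and 9.64 FPKM in the DMSO libraries (log2 change 1.41), RGS2 rose (log2 change 0.71), and ADGRG1 fell to 1.82, 1.55 and 1.85 FPKM, against 4.22, 3.92 and 4.26 FPKM with DMSO (log2 change -0.91). CHRNA9, a nicotinic receptor subunit, had 3.56, 2.98 and 2.81 FPKM in the ceritinib libraries, against 0.398, 0.427 and 0.380 FPKM in the DMSO libraries (log2 change 1.55). It passed the filter only through the ceritinib libraries. Of 22 ion channel and pump genes 4 rose and 9 fell, KCNN4 (log2 change -1.099) and the calcium pump gene ATP2B4 (log2 change -0.95) by most.

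Transcripts of mitochondrial DNA were higher. Mitochondrial DNA encodes 13 mRNAs for subunits of the respiratory chain and ATP synthase, with 2 rRNAs and 22 tRNAs. Of the mRNAs 11 rose and 0 fell, of the rRNAs both rose, and of the tRNAs 21 rose and 0 fell. MT-ND1 had 3342, 3495 and 3517 FPKM in the ceritinib libraries, against 2056, 1837 and 2113 FPKM in the DMSO libraries (log2 change 0.79 ± 0.05 SE, adjusted p = 2.9e-05). MT-CYB rose by 0.66 and MT-ND2 by 0.64, while MT-CO1 rose by 0.13 and MT-CO2 did not pass (log2 change 0.12). MT-CO1 did not pass without 1 of 4 of the libraries (adjusted p = 0.1 to 0.15). MT-CO2 was called higher without DMSO replicate 3 (log2 change 0.17, adjusted p = 0.042). Under quantile normalization, which sets values of equal rank equal, 7 of the mRNAs rose and 2 fell, with MT-CO1 at -0.058 and MT-CO2 at -0.10. MT-RNR2, the large rRNA, had 3193, 3461 and 3481 FPKM in the ceritinib libraries, against 2082, 2023 and 2248 FPKM in the DMSO libraries (log2 change 0.67), and did not pass under quantile normalization (adjusted p = 1). The tRNA median was 0.89, and MT-TL1 had 882, 961 and 979 FPKM in the ceritinib libraries, against 388, 343 and 398 FPKM in the DMSO libraries (log2 change 1.32). FPKM of transcripts as short as tRNAs rest on few positions.

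Nuclear genes for mitochondria rose by smaller amounts. Of the nuclear subunits of oxidative phosphorylation 19 rose, 1 fell and 21 of 41 did not pass, median log2 change 0.10. ATP5D (log2 change 0.47), ATP5G1 (log2 change 0.33), SDHD (log2 change 0.27) and CYCS, cytochrome c (log2 change 0.27), were among those that rose, and NDUFB8 fell (log2 change -0.15). On the TPM scale the counts were 8 higher and 3 lower. Of the mitochondrial ribosomal proteins 16 of 38 rose and 0 fell, against 4 higher and 3 lower on the TPM scale. LRPPRC, which stabilises mitochondrial mRNAs, had 37.1, 39.5 and 38.7 FPKM in the ceritinib libraries, against 27.8, 28.3 and 27.7 FPKM in the DMSO libraries (log2 change 0.44). In the citric acid cycle 12 of 22 rose, IDH3B (log2 change 0.27) and IDH2 (log2 change 0.27) among them, and SUCLG2 fell (log2 change -0.27), with 6 higher and 3 lower on the TPM scale. The mitochondrial protease gene LONP1 fell, with 21.4, 18.5 and 19.7 FPKM in the ceritinib libraries, against 30.4, 32.1 and 30.5 FPKM in the DMSO libraries (log2 change -0.62).

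Glycolysis and hypoxia genes fell more often than they rose. Of 24 glycolytic genes 3 rose and 9 fell. HK2 had 18.6, 18.3 and 18.3 FPKM in the ceritinib libraries, against 23.1, 23.96 and 22.7 FPKM in the DMSO libraries (log2 change -0.32), ENO1 fell (log2 change -0.16), and GPI rose (log2 change 0.17). On the TPM scale 0 rose and 13 fell. Of 21 hypoxia response genes 5 rose and 9 fell. NDRG1 (log2 change -0.55), BNIP3L (log2 change -0.50) and VEGFA (log2 change -0.33) fell. EPAS1, which encodes the hypoxia-inducible factor HIF-2α, had 11.4, 12.2 and 11.4 FPKM in the ceritinib libraries, against 4.303, 4.08 and 4.05 FPKM in the DMSO libraries (log2 change 1.299 ± 0.04 SE, adjusted p = 6.9e-07), while HIF1A did not pass (log2 change -0.05). HIF1A was called lower on the TPM scale (log2 change -0.12, adjusted p = 0.013).

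Genes for ribosomal proteins fell while genes for ribosome assembly rose. Of the cytosolic ribosomal protein genes 2 rose, 50 fell and 24 of 76 did not pass, median log2 change -0.13. RPS18 had 502, 488 and 489 FPKM in the ceritinib libraries, against 605, 658 and 652 FPKM in the DMSO libraries (log2 change -0.37), RPL13A fell (log2 change -0.28), and RPS26 (log2 change 0.29) and RPL24 (log2 change 0.07) were those that rose, RPL24 not without any 1 of the libraries (adjusted p = 0.053 to 0.14). Many of these genes have processed pseudogenes that can take their reads, and of 292 tested processed pseudogenes 20 rose and 84 fell. The elongation factor gene EEF1A1 had the largest loss in FPKM of the nuclear genes, with 1891, 1927 and 1929 FPKM in the ceritinib libraries, against 2421, 2479 and 2471 FPKM in the DMSO libraries (log2 change -0.36). HMGA1, a chromatin architectural factor, had 612, 596 and 589 FPKM in the ceritinib libraries, against 919, 890.3 and 917 FPKM in the DMSO libraries (log2 change -0.60). Of the ribosome biogenesis genes 26 rose, 1 fell and 9 of 36 did not pass, median log2 change 0.14. GNL3 (log2 change 0.31), BOP1 (log2 change 0.30), NOP2 (log2 change 0.27) and the RNA polymerase I subunit gene POLR1A (log2 change 0.24) rose, and FBL fell (log2 change -0.10). On the TPM scale the counts were 12 higher and 1 lower.

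Nucleotide synthesis and mitotic genes rose slightly. Of the nucleotide genes 10 of 20 rose and 0 fell (4 higher and 1 lower on the TPM scale). CAD, which begins pyrimidine synthesis, had 25.9, 26.3 and 25.2 FPKM in the ceritinib libraries, against 20.6, 19.2 and 19.2 FPKM in the DMSO libraries (log2 change 0.37). Of the G2/M genes 17 rose, 1 fell and 12 of 30 did not pass, median log2 change 0.15: KIF23 (log2 change 0.29), CCNB1 (log2 change 0.29), CDK1 (log2 change 0.26) and TOP2A (log2 change 0.26) rose, and PTTG1 fell (log2 change -0.13), a call lost without 1 of 4 of the libraries (adjusted p = 0.057 to 0.086). Of the G1/S and replication genes 9 of 30 rose and 0 fell, but on the TPM scale 2 rose and 7 fell. The inhibitors CDKN2C (log2 change 0.42) and CDKN1B (log2 change 0.34) rose, CDKN2D fell (log2 change -0.25), and CDKN1A did not pass (log2 change -0.08). CDKN1A was called lower on the TPM scale (log2 change -0.16, adjusted p = 0.042) and without ceritinib replicate 1 (log2 change -0.14, adjusted p = 0.024). The call of CDKN2D was lost without any 1 of 5 of the libraries (adjusted p = 0.067 to 0.11).

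Most of the replication-dependent histone genes that were tested rose. These genes make the core and linker histones of new chromatin, and their usual mRNAs end in a stem-loop and carry no poly(A) tail. Of 68 listed after the values were seen, 23 passed the filter, of which 21 rose and 0 fell, with a median log2 change of 0.76. Members under the filter were not tested, and a gene low with DMSO could pass through the ceritinib libraries alone. The filter can therefore shape this count and median. HIST1H1C, a linker histone gene, had 60.4, 61.9 and 63.8 FPKM in the ceritinib libraries, against 21.1, 24.0 and 21.0 FPKM in the DMSO libraries (log2 change 1.45 ± 0.05 SE, adjusted p = 1.3e-06). HIST1H2AC had 10.9, 10.95 and 10.5 FPKM in the ceritinib libraries, against 2.44, 3.06 and 2.56 FPKM in the DMSO libraries (log2 change 1.68 ± 0.06 SE, adjusted p = 1.6e-06). HIST1H2BK, the most abundant, rose to 140.4, 123 and 126 FPKM with ceritinib, against 76.1, 80.8 and 80.6 FPKM with DMSO (log2 change 0.70). HIST2H2AA3 and HIST2H2AA4, near-identical copies whose values are uncertain, rose by 1.75 and 1.76. How RNA was selected before library construction is not stated in any source used here.

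The secretory pathway and sterol synthesis rose by small amounts. Of 23 ER chaperone and folding genes 14 rose and 4 fell, CANX (log2 change 0.32), HYOU1 (log2 change 0.31) and CALR (log2 change 0.27) among those that rose. The unfolded protein response genes XBP1 (log2 change -0.25), EDEM1 (log2 change -0.30) and HERPUD1 (log2 change -0.19) fell, XBP1 not without ceritinib replicate 1 (adjusted p = 0.051). Of 31 ER to Golgi genes 15 rose and 2 fell, and on the TPM scale 8 rose and 8 fell. Of 23 sterol synthesis genes 13 rose and 2 fell, and on the TPM scale 6 rose and 3 fell. GRAMD1B, which carries cholesterol from the plasma membrane to the ER, had the largest change in the sterol lists, with 125, 127 and 126 FPKM in the ceritinib libraries, against 23.3, 23.1 and 22.6 FPKM in the DMSO libraries (log2 change 2.402 ± 0.02 SE, adjusted p = 1.2e-09). Its paralogs GRAMD1A and GRAMD1C did not pass, with log2 changes of -0.03 and -0.13. GRAMD1C was called lower on the TPM scale (log2 change -0.28, adjusted p = 0.029). The same held under quantile normalization (adjusted p = 0.046) and in the fit over all 12 libraries (adjusted p = 0.049). Of 32 lysosome and autophagy genes 15 rose and 4 fell (8 higher and 4 lower on the TPM scale), GLA (log2 change 0.36) higher and CTSB (log2 change -0.40) lower.

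Survival and immune recognition genes changed unevenly. Of 20 BCL2 family and caspase genes 10 rose and 2 fell (6 higher and 3 lower on the TPM scale). MCL1, an anti-apoptotic member, had 173, 177 and 179.6 FPKM in the ceritinib libraries, against 125, 124 and 123 FPKM in the DMSO libraries (log2 change 0.51). BCL2A1 rose (log2 change 0.43), and BCL2L1, which encodes BCL-XL, fell to 20.96, 21.5 and 20.2 FPKM with ceritinib, against 28.1, 29.1 and 27.5 FPKM with DMSO (log2 change -0.42). In antigen presentation 9 of 19 rose and 5 fell, but 6 rose and 7 fell on the TPM scale: HLA-B (log2 change -0.31) and HLA-C (log2 change -0.24) fell, B2M (log2 change 0.24), TAPBP (log2 change 0.28) and CD274, which encodes PD-L1 (log2 change 0.47), rose. Reads of the HLA genes may be divided among them. Of 12 tested interferon-stimulated genes 6 rose, IFI6 (log2 change 0.52) and ISG15 (log2 change 0.43) among them, and IFIT5 fell (log2 change -0.18). Leaving out single libraries ended the calls of IFIT5 and ISG15 (adjusted p up to 0.075 and 0.071). CD55, which protects cells from complement, had 15.3, 16.1 and 15.9 FPKM in the ceritinib libraries, against 6.89, 6.23 and 6.94 FPKM in the DMSO libraries (log2 change 1.13). Aryl hydrocarbon receptor targets CYP1B1 (log2 change 0.97), TIPARP (log2 change 0.41) and NQO1 (log2 change 0.28) rose, AHR itself did not pass (log2 change -0.05). Of 25 oxidative stress genes 6 rose and 6 fell, and on the TPM scale 2 rose and 10 fell.

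**Figure D4:**
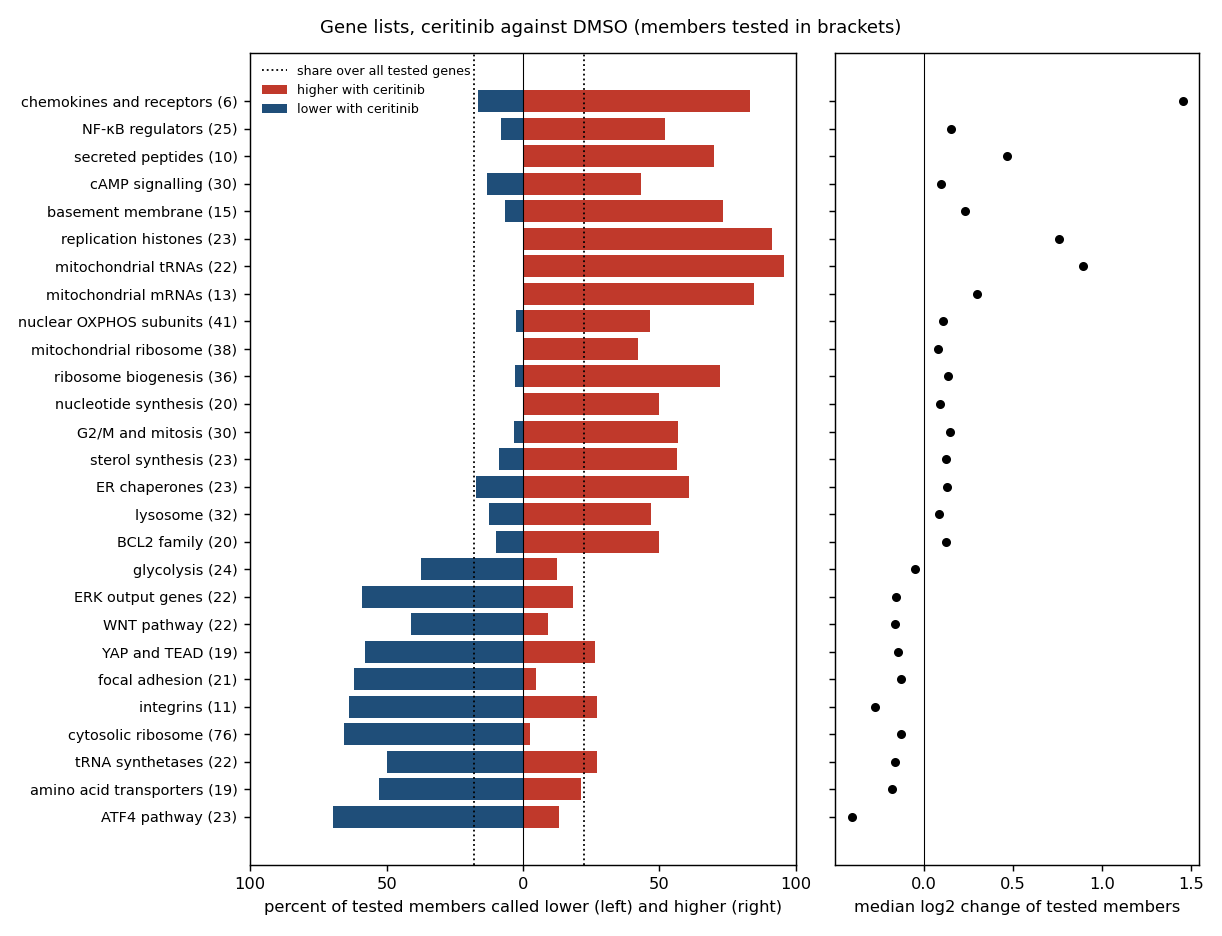
For 27 gene lists, the percent of tested members called higher (red, right) or lower (blue, left) with ceritinib, and in the right panel the median log2 change of the tested members; dotted lines mark the shares over all tested genes, 22.5% higher and 18.1% lower. The ATF4 list has 16 of 23 tested members lower and the histone list 21 of 23 higher. Members that did not pass the filter are not counted.

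Among long non-coding genes, AC023043.1 (log2 change 1.26) and AC004817.3 (log2 change 0.95) rose most and SFTA1P (log2 change -0.69) fell most. AC023043.1 and AC004817.3 had mean DMSO levels under 1 FPKM. Of 191 tested antisense genes 55 rose and 16 fell. The libraries were strand-specific per the labels, but no source used here says whether counting used strand, so an antisense gene's reads may belong to its partner.

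Set directly against crenolanib, ceritinib differed widely. Crenolanib inhibits the PDGF receptors and FLT3 and was used at the same concentration and time. Of 11486 genes tested, 34.6% were called, 2234 higher with ceritinib (19.4%) and 1745 lower (15.2%), of which 44 (0.383%) and 10 (0.0871%) differed by 2-fold or more. CXCL8 had 96.1, 103 and 97.8 FPKM with ceritinib, against 12.4, 11.2 and 10.9 FPKM with crenolanib (log2 difference 3.002 ± 0.05 SE, adjusted p = 8.6e-09). CEMIP had 21.5, 20.9 and 20.9 FPKM with ceritinib, against 1.404, 1.49 and 1.48 FPKM with crenolanib (log2 difference 3.17 ± 0.04 SE, adjusted p = 2.0e-09). GRAMD1B had 125, 127 and 126 FPKM, against 28.4, 27.2 and 28.01 FPKM (log2 difference 2.14 ± 0.03 SE, adjusted p = 2.0e-09). In these 3 genes the ceritinib libraries stood far above both other groups.

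The same held for the histones and for several signalling genes. In the histone list 21 of 24 tested members were higher and 0 lower, a count that the filter can again shape, and HIST1H1C differed by 1.54. DUSP1 1.96, PTGES 1.95, NNMT 1.495, PDE3A 1.42 and PDE4B 0.97 were higher with ceritinib (log2 differences). PLAU had 388, 382 and 382 FPKM with ceritinib and 160.2, 161 and 161 FPKM with crenolanib, against 239.9, 236 and 228 FPKM with DMSO, and differed between the compounds by 1.25. MMP14 (-0.91), MMP1 (-0.81) and ITGB5 (-1.07) were lower with ceritinib. Of the nuclear oxidative phosphorylation subunits 32 of 41 were higher with ceritinib and 0 lower, and of the glycolytic genes 2 of 24 were higher and 15 lower.

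Several serine and amino acid genes did not pass the threshold between the compounds. PSAT1 had 96.7, 100.3 and 96.98 FPKM with ceritinib and 105, 97.1 and 98.1 FPKM with crenolanib, against 223, 219.9 and 214 FPKM with DMSO. Its difference between the compounds was -0.03 (95% interval -0.10 to 0.05), that of PHGDH was -0.02 (95% interval -0.09 to 0.04), that of MTHFD2 was 0.02 (95% interval -0.04 to 0.09) and that of PCK2 was -0.07 (95% interval -0.23 to 0.08), none past the threshold. ASNS was lower with ceritinib by a small amount, 10.2, 9.44 and 9.18 FPKM against 11.5, 11.05 and 10.6 FPKM (log2 difference -0.18 ± 0.05 SE, adjusted p = 0.019). CHAC1 (-0.68), SLC7A5 (-0.36) and CARS (-0.25) were lower with ceritinib as well. FN1 did not pass, at 28.7, 29.7 and 28.8 FPKM with ceritinib, against 31.1, 30.6 and 30.6 FPKM with crenolanib (log2 difference -0.08, 95% interval -0.14 to -0.02). In the ATF4 list 4 of 24 tested members were higher and 9 lower. Both compounds were set against the same 3 DMSO libraries, so their changes from DMSO are given only side by side.

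**Figure D5:**
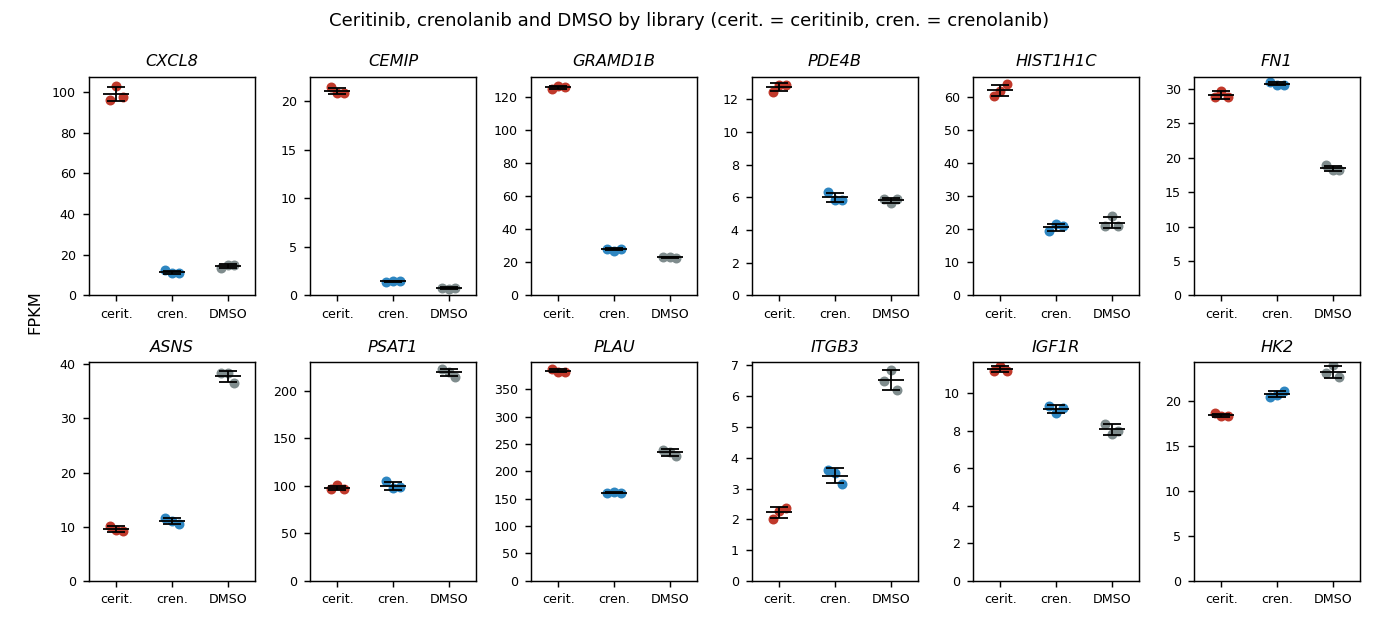
FPKM (vertical axes, each from 0) of 12 genes in the 3 ceritinib (red, left), 3 crenolanib (blue, middle) and 3 DMSO libraries (grey, right); bars are the mean and SD. CXCL8, CEMIP and GRAMD1B are high with ceritinib alone, ASNS and PSAT1 are low with both compounds, and FN1 is high with both.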

How the data were processed

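RNA from 143B cells was measured by strand-specific sequencing, per the labels' protocols. Per the submitters' processing notes the tools were FastQC 0.11.2, STAR and StringTie with build hg38; no source used here gives the other tools' versions or the annotation. The authors deposited 1 table per sample with a value per gene symbol. The unit of these deposited values, FPKM, was read from the values and the tools named, since no header states it; rows without a symbol were left out. Depth was estimated from where low values of FPKM times transcript length pile up, within a preset range, and is not a stated count.

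The scale of testing was log2(FPKM + 1), and the tool was limma 3.58.1 under R 4.3.3 (variance trend, 2 groups of 3, 4 residual degrees of freedom, Benjamini-Hochberg adjustment over all tested genes, threshold 0.05), for genes that reached 1 FPKM in 3 or more of the 6 libraries. The fit was checked on simulated data. Each gene's biotype and position came from GENCODE 29 (11373 of 11548 tested symbols matched), and promoters from RefSeq (GRCh38.p14). Alternatives were another pseudocount, filter, scaling, GC and length correction, a fit over all libraries, robust variances, the replicate number as a block, and leaving out each library.

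The members and lists were chosen with earlier results of these data known. Genes were named by rule: the 15 protein-coding and 5 long non-coding genes with the largest change in each direction, the 10 largest gains and losses in FPKM, the 6 smallest adjusted p of each list and all listed kinases, less read-through and near-identical loci; a few genes are not reported here. Some further list members were named after their values were seen, most for their role or because a count was small.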

Additional observations from a re-analysis of the deposited data

How the results depend on the processing

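The counts of 2602 genes higher and 2094 lower stayed within 1.5 times under pseudocounts of 0.1 and 5 FPKM, filters at 0.1 FPKM and at none, median-of-ratios, quantile and nuclear scaling, GC and length correction, a fit over all 12 libraries and robust variances. The exceptions were a rescaling of each library to TPM, which gave 1454 higher and 3257 lower, and a filter at 5 FPKM, with 1312 lower among fewer genes tested. Genes past 2-fold numbered 92 higher and 48 lower at a pseudocount of 0.1 FPKM, 18 and 6 at 5 FPKM, and 47 lower on the TPM scale. The pseudocount sets how far low genes move. On the TPM scale the pseudocount of 1 was added after rescaling to a total above the FPKM sums. It weighed less there, so 2-fold counts on that scale mix scaling with pseudocount. Against crenolanib, genes past 2-fold numbered 93 and 31 at 0.1 FPKM and 69 and 30 on the TPM scale, where 1463 genes were higher. The cause of the shift on the TPM scale was not tested; FPKM sums were 259152 to 260484 in the ceritinib libraries and 244440 to 249437 in the DMSO libraries. Without each library in turn, 2031 to 2264 genes were higher and 1638 to 1805 lower against DMSO, 1640 to 1998 and 1288 to 1522 against crenolanib, and the mitochondrially encoded share was 4.61 to 5.80 percentage points higher with ceritinib. With the replicate number as a replicate block, 2244 genes were higher and 1774 lower against DMSO, and 1802 and 1425 against crenolanib. Same-numbered libraries did not deviate together (correlations -0.05, -0.005 and 0.05). The main fit did not pair them, and the labels do not say whether same-numbered cultures were handled together. Of the 4696 calls, 64.4% to 99.7% were shared by each alternative, with 1 gene turned under quantile normalization. Among genes named here, the direction turned for RPL24 on the TPM scale (-0.0057) and for MT-CO1 and MT-CO2 under quantile normalization (-0.058 and -0.10). With no filter, which adds genes to the adjustment, calls such as those of BCAR1, BCL2A1, DDIT4, HLA-C, IFI6, PLA2G4A and PSPH were lost. Calls at 1 to 5 FPKM rest on a median SE of 0.05, against 0.03 over 100 FPKM, and 32.1% of genes were called at that low level, against 65.5% at the high one.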

Other observations

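Circadian clock genes changed in both directions. Of 14 tested, 3 rose and 5 fell: the activator gene ARNTL (log2 change 0.50) and PER2 (log2 change 0.48) rose, and NPAS2, with 4.84, 4.51 and 4.72 FPKM in the ceritinib libraries, against 7.603, 7.77 and 8.45 FPKM in the DMSO libraries (log2 change -0.65), NR1D2 (log2 change -0.46) and NR1D1 (log2 change -0.32) fell, NR1D1 not without DMSO replicate 2 or 3 (adjusted p = 0.087 and 0.079). Among retinoid genes, a list drawn up after the values were seen, 6 of 13 rose and 1 fell (4 higher and 2 lower on the TPM scale), and RDH10, which oxidises retinol, had 19.6, 21.2 and 20.9 FPKM in the ceritinib libraries, against 8.54, 8.45 and 8.23 FPKM in the DMSO libraries (log2 change 1.199 ± 0.04 SE, adjusted p = 6.9e-07). Of 9 tested osteoblast lineage genes 2 rose and 3 fell: TNFRSF11B, which encodes osteoprotegerin, had 0.476, 0.663 and 0.553 FPKM in the ceritinib libraries, against 1.43, 1.76 and 1.58 FPKM in the DMSO libraries (log2 change -0.73), and SPP1, osteopontin, fell (log2 change -0.45). TNFRSF11B passed the filter only through the DMSO libraries.

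Contractile genes under serum response factor divided, 5 of 20 higher and 9 lower (2 and 10 on the TPM scale). ACTA2, smooth muscle actin, had 1.72, 1.84 and 2.15 FPKM in the ceritinib libraries, against 0.696, 0.754 and 0.636 FPKM in the DMSO libraries (log2 change 0.78), and CNN2 had 45.6, 42.4 and 42.4 FPKM in the ceritinib libraries, against 26.7, 27.8 and 26.1 FPKM in the DMSO libraries (log2 change 0.67), while FHL1 fell (log2 change -0.48). ACTA2 passed the filter only through the ceritinib libraries. Of 13 tested mesenchymal and epithelial transition genes 3 rose and 5 fell, with SNAI2 higher (log2 change 0.41) and ZEB1 (log2 change -0.31) and TWIST2 (log2 change -0.29) lower, TWIST2 not without ceritinib replicate 2 or 3 or DMSO replicate 2 (adjusted p = 0.086, 0.092 and 0.083). Of the AKT and FOXO genes 3 of 16 rose and 4 fell (3 and 9 on the TPM scale), PIK3CD (log2 change 0.41) higher and TRIB2 (log2 change -0.64) lower. Proteasome subunits gave 12 of 36 higher and 4 lower as deposited and 4 higher and 11 lower on the TPM scale, PSMD2 (log2 change -0.28) being lowest. Of 24 fatty acid genes 7 rose and 3 fell, LPIN1 lowest (log2 change -0.51) and PLIN2 highest (log2 change 0.38), against 1 and 6 on the TPM scale.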
